A study of Mus musculus with 7 samples.

Results

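Oligodendrocytes (OLs) and astrocytes are glial cells that can be derived in culture from a common precursor, and their tRNA pools were compared directly here. The comparison used 4 of the 7 libraries of the series, OL replicates 1 and 2 and astrocyte replicates 1 and 2. All 52 listed anticodon pools were compared, together with the 192 of 217 isodecoders that had a mean of at least 1 RPM (reads of a tRNA relative to all tRNA reads of the library, brought to the same total) over the 7 libraries. Of the other 25 isodecoders, 3 were listed at 0 in every library, as was 1 of the anticodons. The isodecoders nearest to the limit were Leu-UAA-4 at a mean of 1.74 RPM, which was tested, and Cys-GCA-13 at 0.938 RPM, which was not. The remaining set held 184 isodecoder shares, each the percent of an anticodon pool that 1 isodecoder contributed, in the 42 pools with at least 2 such members.

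Both cell types came from mouse oligodendrocyte progenitor cells (OPCs) of strain 129S/SvEv that had themselves been derived from epiblast stem cells. OLs were made by adding the thyroid hormone T3 in a medium with noggin, IGF-1, cyclic AMP and NT3. Astrocytes were made with BMP4 in a medium with bFGF, Hb-EGF and CNTF. According to the methods, cells of both fates were kept for about the same number of days. The study reports in its results that a part of the cells in OL cultures remained undifferentiated. The 3 OPC libraries of the series entered the statistical model only to help estimate the spread between replicates. The tables list tRNAs, so marker transcripts of the cell types were not analysed here. In such bulk samples fewer cells of a type and less RNA per cell cannot be told apart.

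A tRNA carries an amino acid to the ribosome and reads codons through its anticodon. Mammals encode the same anticodon in many gene copies, and tRNAs that share an anticodon but differ elsewhere in their sequence are called isodecoders, so that the level of an anticodon pool is the sum of its isodecoders. The first base of the anticodon, called the wobble base, is often modified, as when adenosine becomes inosine and reads several codons. Mutations in enzymes that make or charge tRNAs have been linked to disorders of myelin, the sheath that OLs make. Isodecoders are named below by amino acid, anticodon (with U for T) and number.

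The libraries held between 1590312 and 2627351 tRNA reads, and 3 reads, which a value of 0 does not exclude, made 1.14 to 1.89 RPM. Reads outside the cytosolic tRNAs made up 3.55% and 3.90% in OL replicates 1 and 2 and 7.74% and 7.88% in the astrocyte replicates. The RPM scale counts those reads, and the median log2 change of all anticodons, OL minus astrocyte, was 0.11 as deposited, 0.04 after rescaling to the listed cytosolic tRNAs and 0.00 after median-of-ratios scaling. Changes are therefore also given relative to the median of all tRNAs tested. Neither pair of replicates agreed within counting error, and the median absolute log2 difference between isodecoders of replicate libraries was 0.137 in OLs and 0.256 in astrocytes.

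The first question was whether the fates differ in the tRNAs available for each codon. The largest pools were the same in both, and the 10 largest in OLs, from Met-CAU and Lys-UUU to Glu-UUC, were also the 10 largest in astrocytes, with 53.3% of the listed cytosolic RPM in OLs and 54.6% in astrocytes. None of the anticodon pools was called different. In limma on log2(RPM + 1), 0 of 52 passed an adjusted p of 0.01 (background 0%), 0 passed 0.05, and 8 had an unadjusted p under 0.05 (15.4%), 7 higher in OLs (13.5%) and 1 lower (1.92%). OLs and astrocytes were separate, with no overlap between their libraries, for 30 pools (57.7%), with OLs above in 25 (48.1%) and below in 5 (9.62%). For pools of at least 100 RPM the 95% interval of the log2 change lay between -1 and 1 in 45 of 47, so that a 2-fold difference lay outside the interval for most pools, while an interval within 0.5 was reached by 30 of all 52.

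**Figure D1:**
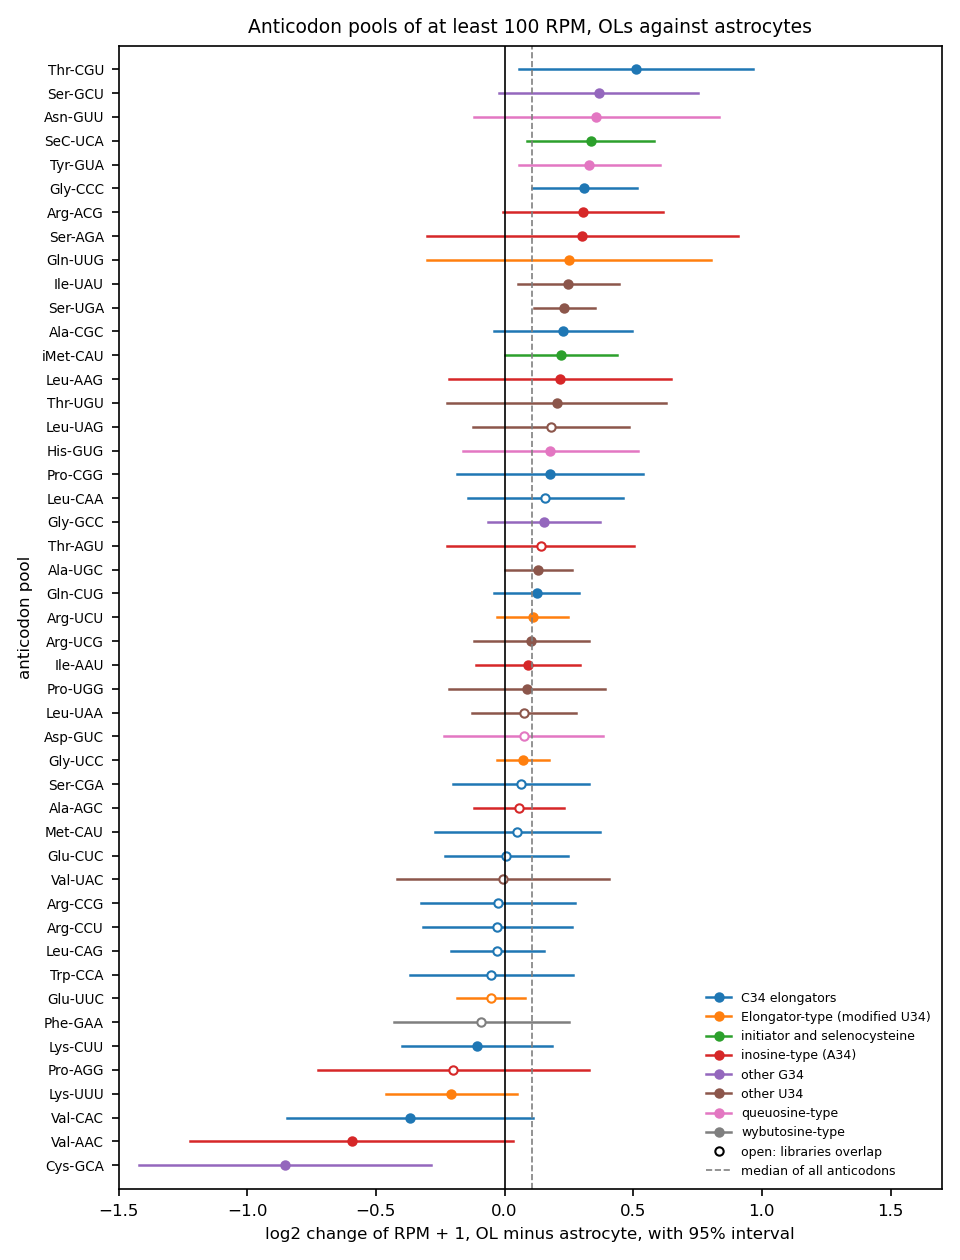
Log2 change of RPM + 1, OL minus astrocyte, with its 95% interval for the 47 anticodon pools of at least 100 RPM, coloured by the class of the wobble base, with the median of all pools (0.11) as a dashed line. Filled points mark pools whose OL and astrocyte libraries do not overlap; Thr-CGU is at the top with 0.51 and Cys-GCA at the bottom with -0.85.

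Among pools of at least 100 RPM whose libraries did not overlap, the largest value in OLs relative to astrocytes was that of Thr-CGU, which reads the threonine codon ACG. It was at 3184 and 3336 RPM in OL replicates 1 and 2 and at 2334 and 2243 RPM in astrocyte replicates 1 and 2, a log2 difference of 0.51 (SE 0.18, limma adjusted p 0.251). Both OL libraries were above both astrocyte libraries. SeC-UCA, the selenocysteine tRNA that reads UGA within selenoprotein messages, was at 3287 and 3426 RPM in OLs and 2546 and 2777 RPM in astrocytes, a change of 0.34 (SE 0.098, limma adjusted p 0.216). Tyr-GUA, a tRNA that carries queuosine at the wobble base, was at 27386 and 27561 RPM in OLs and 24461 and 19543 RPM in astrocytes, a change of 0.33 (SE 0.11, limma adjusted p 0.231). The OL libraries lay above both astrocyte libraries, which were themselves nearly as far apart as the group means. Asn-GUU, likewise a queuosine tRNA, was at 46792 and 45676 RPM against 30549 and 42657 RPM, and Ser-GCU, which reads the serine codons AGU and AGC, at 14052 and 16068 RPM against 12102 and 11231 RPM. Their changes were 0.36 and 0.37 with limma adjusted p of 0.327 and 0.258, and for Asn-GUU the astrocyte libraries lay farther apart than the group means.

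The pools with the lowest values in OLs relative to astrocytes read cysteine, valine and lysine codons. Cys-GCA, the pool that reads both cysteine codons, was at 179.8 and 209 RPM in OLs and 411 and 299 RPM in astrocytes, which was a log2 difference of -0.85 (SE 0.23, limma adjusted p 0.195). It was the scarcest of the named pools and the one anticodon with an unadjusted p under 0.05 in that direction. Val-AAC was at 3259.7 and 3667 RPM in OLs and 6352 and 4286 RPM in astrocytes (-0.59, SE 0.25, limma adjusted p 0.258). Val-CAC was at 12513 and 14131 RPM in OLs and 19953 and 14731 RPM in astrocytes (-0.37, SE 0.19, limma adjusted p 0.327). In both valine pools astrocyte replicate 1 was the highest library, and astrocyte replicate 2 lay just above the OL libraries. Lys-UUU, which reads AAA and AAG and carries a modified uridine made by the Elongator pathway, was at 65559 and 63612 RPM in OLs and 80947 and 68574 RPM in astrocytes (-0.21, SE 0.10, limma adjusted p 0.327). Lys-CUU, which reads AAG, was at 31264 and 28855 RPM against 32586 and 32122 RPM (-0.11, SE 0.12, limma adjusted p 0.571).

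Phe-GAA, whose anticodon loop carries the bulky base wybutosine, was at 40595 and 41062 RPM in OLs and 49184 and 38422 RPM in astrocytes, a change of -0.09 (95% interval -0.43 to 0.25, limma adjusted p 0.69). The OL libraries lay between the astrocyte libraries. Arg-UCU gave a change of 0.11 (95% interval -0.03 to 0.25), which equalled the median of all pools, and Ala-AGC one of 0.06 (-0.12 to 0.23), which was -0.05 after median-of-ratios scaling. Ala-CGC and Ala-UGC, at 0.23 (-0.04 to 0.49) and 0.13 (0.00 to 0.26), had limma adjusted p of 0.327 and 0.258.

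Grouped by wobble base, none of the classes held an anticodon past the threshold. The queuosine tRNAs for asparagine, aspartate, histidine and tyrosine had a median change of 0.25 beside 0.11 over all anticodons, with OLs above in 3 of 4, where 48.1% of all anticodons had OLs above and 9.62% had them below. The 8 inosine-type pools had a median of 0.12 with OLs above in 4 and below in 1, which was Val-AAC. The 5 Elongator-type pools had a median of 0.07, with OLs above in 3 and below in 1, which was Lys-UUU. The 15 pools with C at the wobble base, iMet-CAU aside, had a median of 0.05. The initiator tRNA iMet-CAU, which starts translation, was at 19965 and 19267 RPM in OLs and 15420.1 and 18441 RPM in astrocytes, a change of 0.22 (limma adjusted p 0.258).

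Valine was the amino acid whose isoacceptors, the pools with different anticodons for 1 amino acid, were divided most differently among families with more than 100 RPM. Val-UAC made up 52.4% and 52.0% of valine tRNA in OLs and 44.4% and 45.8% in astrocytes. Val-CAC made up 37.7% and 38.1% against 42.2% and 42.0%, and Val-AAC 9.83% and 9.90% against 13.4% and 12.2%. For all 3 pools the OL libraries lay on one side of the astrocyte libraries, and the gap between groups was larger than that between replicates, although the Val-UAC level itself was at 17391 and 19257 RPM against 20976 and 16065 RPM, which overlapped. This division was not tested, and the valine pools were singled out for it after their values were seen. Among threonine tRNAs Thr-CGU made up 25.5% and 23.5% in OLs and 19.7% and 20.9% in astrocytes.

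The second question was whether individual isodecoders differ, given that no pool was called. Of 192 isodecoders 12 passed an adjusted p of 0.01 in limma (6.25%), 2 higher in OLs (1.04%) and 10 lower (5.21%). At 0.05 there were 18 (9.38%), and the libraries did not overlap for 116 (60.4%), with OLs above in 78 (40.6%) and below in 38 (19.8%), while the median change of all isodecoders was 0.11. The 12 belonged to 10 pools, none of which was called at the anticodon level. In 11 of the 12 the isodecoder was a lesser member of its pool, and Cys-GCA-8 was the exception. Lesser members made up 142 of the 192 tested, so most calls would fall among them at an even rate. The count was 0 without OL replicate 1 (lowest adjusted p 0.0627), without OL replicate 2 (0.0297) or without astrocyte replicate 1 (0.0115), fits in which the remaining library of that group is assumed to vary like those of the other groups. It was 8 without astrocyte replicate 2, and 0 in limma without a variance trend (lowest adjusted p 0.02) or without the filter on low isodecoders (0.0169).

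**Figure D2:**
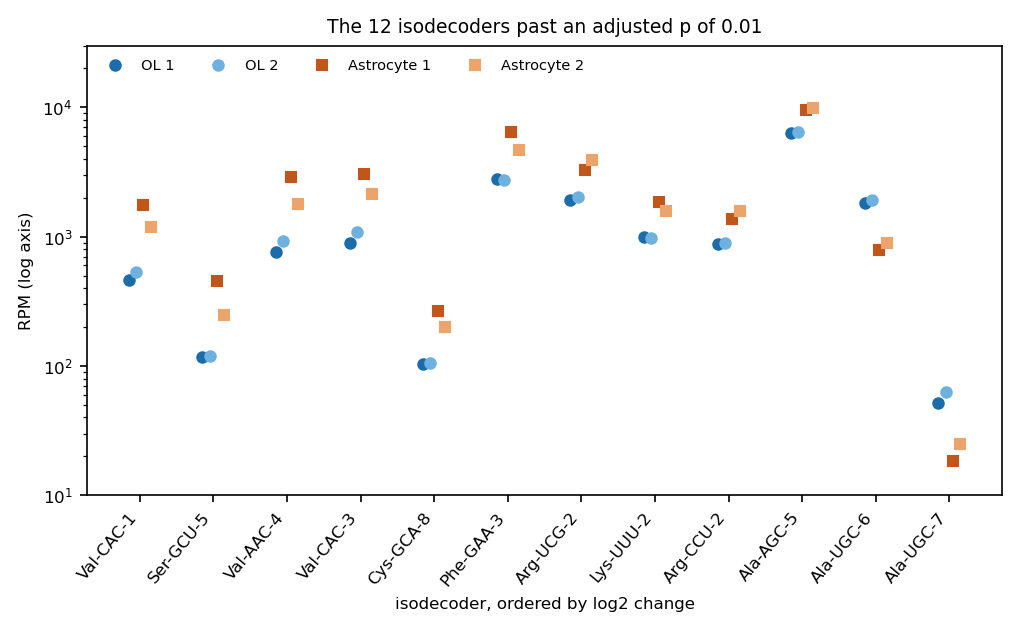
RPM on a log axis in each of the 4 libraries (circles OL replicates 1 and 2, squares astrocyte replicates 1 and 2) for the 12 isodecoders past an adjusted p of 0.01, ordered by log2 change. The OL libraries lie below both astrocyte libraries for 10 isodecoders, from Val-CAC-1 to Ala-AGC-5, and above them for Ala-UGC-6 and Ala-UGC-7.

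The valine isodecoders had 3 of the 4 lowest changes. Val-CAC-1, a single-copy isodecoder that reads GUG, was at 459.7 and 528 RPM in OLs and at 1748 and 1184 RPM in astrocytes. The mean was 2.97-fold higher in astrocytes, with a log2 difference of -1.54 (SE 0.21, limma adjusted p 0.0021). Val-CAC-3 was at 890.4 and 1090.3 RPM in OLs and 3059 and 2128 RPM in astrocytes, a change of -1.37 (SE 0.21, limma adjusted p 0.0031). In both the groups were separate, and the astrocyte libraries differed more from each other than the OL libraries did. Val-AAC-4, whose wobble adenosine becomes inosine, was at 763 and 933 RPM in OLs and 2870.0 and 1774 RPM in astrocytes, a change of -1.42 (SE 0.25, limma adjusted p 0.00544). Again both OL libraries were below both astrocyte libraries.

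The remaining valine isodecoders did not pass. Val-CAC-2, the major member with 5 gene copies, was at 11062 and 12355 RPM in OLs and 14980.0 and 11309 RPM in astrocytes (-0.15, SE 0.16, limma adjusted p 0.587), and these overlapped. Val-AAC-5, the major member of its pool, was at 2113 and 2406 RPM against 3038 and 2015 RPM (-0.13, SE 0.21, limma adjusted p 0.726), which overlapped as well. Val-AAC-2 was at 317 and 255 RPM against 368 and 447 RPM (-0.51, limma adjusted p 0.122). The lesser members Val-CAC-4, Val-CAC-5, Val-CAC-7, Val-AAC-1 and Val-AAC-3 were each under 150 RPM in every library, with changes from -0.65 to 0.21 and limma adjusted p of 0.487 or more.

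In the alanine family the direction was the opposite for 2 isodecoders of Ala-UGC, which reads the codon GCA. Ala-UGC-6 was at 1807 and 1903 RPM in OLs and 793 and 888 RPM in astrocytes, 2.21-fold higher in OLs, with a log2 difference of 1.14 (SE 0.15, limma adjusted p 0.0021). Ala-UGC-7 was at 52.2 and 62.9 RPM in OLs and 18.3 and 24.7 RPM in astrocytes, a change of 1.39 (SE 0.27, limma adjusted p 0.0076). The replicates of Ala-UGC-6 lay close together and those of Ala-UGC-7 less so, and in both the groups were separate. Ala-UGC-5 was at 27.7 and 28.0 RPM against 10.7 and 13.3 RPM (1.16, SE 0.32, limma adjusted p 0.0444), past 0.05 and not 0.01. The abundant members did not pass, with Ala-UGC-2/3, an entry for a pair of isodecoders, at 9025 and 8864 RPM against 8279 and 9556 RPM (0.01, 95% interval -0.27 to 0.29), Ala-UGC-4 at 5242 and 5166 RPM against 4631 and 5129.5 RPM, and Ala-UGC-1 at 2713 and 2891 RPM against 2895 and 2265 RPM. Ala-UGC-7 passed in 7 of the 16 alternative fits in which it was tested, with limma adjusted p from 0.00274 to 0.081, and was at 0.0144 without astrocyte replicate 2.

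Ala-AGC-5, an inosine-type isodecoder with 3 gene copies, was lower in OLs, while another member of the same pool gave a positive value that did not pass. Ala-AGC-5 was at 6275 and 6415 RPM in OLs and 9486 and 9943 RPM in astrocytes, a change of -0.61 (SE 0.12, limma adjusted p 0.0076). It was the most abundant of the 12, and its replicates agreed closely in both groups. Ala-AGC-7 was at 3348 and 3571 RPM in OLs and 2142 and 2471 RPM in astrocytes (0.59, SE 0.13, limma adjusted p 0.0151). Without astrocyte replicate 2 the limma adjusted p of Ala-AGC-5 was 0.0447, within a range of 0.000538 to 0.112 over its alternatives.

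In the arginine family 2 isodecoders were lower in OLs. Arg-UCG-2, which reads CGA and is the smallest member of its pool, was at 1905 and 2009 RPM in OLs and 3283 and 3913 RPM in astrocytes, a change of -0.87 (SE 0.13, limma adjusted p 0.0021). Arg-CCU-2, which reads AGG, was at 872 and 893 RPM in OLs and 1374 and 1591 RPM in astrocytes, a change of -0.74 (SE 0.15, limma adjusted p 0.00853). In both, astrocyte replicate 2 was the highest library, unlike in the valine isodecoders. Arg-ACG-1, an inosine-type isodecoder, was at 12767 and 12857 RPM against 9315 and 9427 RPM (0.45, SE 0.10, limma adjusted p 0.0168), and Arg-UCU-2 at 3401 and 3569 RPM against 2695 and 2238 RPM (0.50, SE 0.14, limma adjusted p 0.0537). Arg-CCU-2 had a limma adjusted p of 0.0559 without astrocyte replicate 2, 0.0112 and 0.0144 without OPC replicates 1 and 2, and 0.0105 with a pseudocount of 10 RPM, within 0.000543 to 0.112 over its alternatives.

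In the Phe-GAA and Lys-UUU pools a lesser member was lower in OLs and the major member did not pass. For both pools the study reports weaker marks of modification in reads of the anticodon loop in OLs than in astrocytes. Whether this affects the RPM given here was not tested. Phe-GAA-3, with 1 gene copy, was at 2785 and 2751 RPM in OLs and 6471 and 4688 RPM in astrocytes, a change of -0.99 with a 95% interval of -1.38 to -0.61 in limma. Phe-GAA-1, with 5 copies, was at 34291 and 34705 RPM in OLs and 38879 and 30643 RPM in astrocytes, a change of 0.00 or slightly less (95% interval -0.27 to 0.27). Phe-GAA-2 was at 3519 and 3606 RPM against 3834 and 3091 RPM (0.05, 95% interval -0.25 to 0.35). Both overlapped between the groups, and Phe-GAA-3 did not. Lys-UUU-2 was at 993 and 978 RPM in OLs and 1855 and 1581 RPM in astrocytes, a change of -0.80 with a 95% interval of -1.09 to -0.50. Lys-UUU-1, which made up nearly all of the pool, was at 64519 and 62574 RPM against 79022 and 66920.3 RPM (-0.19, 95% interval -0.42 to 0.03), while Lys-UUU-3 and Lys-UUU-5, under 62 RPM in every library, had changes of -0.41 and -0.34 with limma adjusted p of 0.311 and 0.587.

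The last members of the 12 came from serine and cysteine pools. Ser-GCU-5 was at 118 and 120.2 RPM in OLs and 457 and 246 RPM in astrocytes, a change of -1.48 (SE 0.27, limma adjusted p 0.00588), against a change of 0.37 for the whole Ser-GCU pool. Cys-GCA-8 was at 103 and 106 RPM in OLs and 264 and 201 RPM in astrocytes, a change of -1.13 (SE 0.22, limma adjusted p 0.00709). The groups were separate in both, with wide gaps between the astrocyte libraries. Cys-GCA-8 made up 54.0% of its pool in OLs and 65.8% in astrocytes, so its value and that of the pool rest largely on the same reads. It passed in 7 of its 17 alternative fits, with limma adjusted p from 0.000538 to 0.0761, and was at 0.0119 without astrocyte replicate 2.

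Relative to the median of all isodecoders, the changes of the 10 lower isodecoders ran from -1.66 for Val-CAC-1 to -0.73 for Ala-AGC-5, and the Ala-UGC-6 and Ala-UGC-7 changes were 1.03 and 1.27. Among the isodecoders that followed by p, Thr-AGU-6 was at 387 and 458 RPM in OLs and 907 and 684 RPM in astrocytes (-0.90, SE 0.20, limma adjusted p 0.0141), and it had a limma adjusted p of 0.000543 after median-of-ratios scaling, within 0.000543 to 0.159. Thr-CGU-1 was at 840.1 and 796 RPM against 501 and 570.2 RPM (0.61, limma adjusted p 0.0255), and Ala-CGC-2 at 2299.5 and 2576 RPM against 1319 and 1780.1 RPM (0.67, limma adjusted p 0.0255). Gly-GCC-2, with 8 gene copies, was at 1946 and 1715 RPM against 1213 and 1203 RPM (0.60, limma adjusted p 0.0533). His-GUG-1, a queuosine tRNA, was at 57.2 and 65.4 RPM against 25.2 and 29.7 RPM (1.13, limma adjusted p 0.0583). The largest fitted change was that of Leu-UAA-3, at 6.29 and 5.61 RPM in OLs and 0.426 and 1.52 RPM in astrocytes (1.87, SE 0.55, limma adjusted p 0.0583). Its value in astrocyte replicate 1 was that of 1 read, so the fold rests on a few reads per library.

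**Figure D3:**
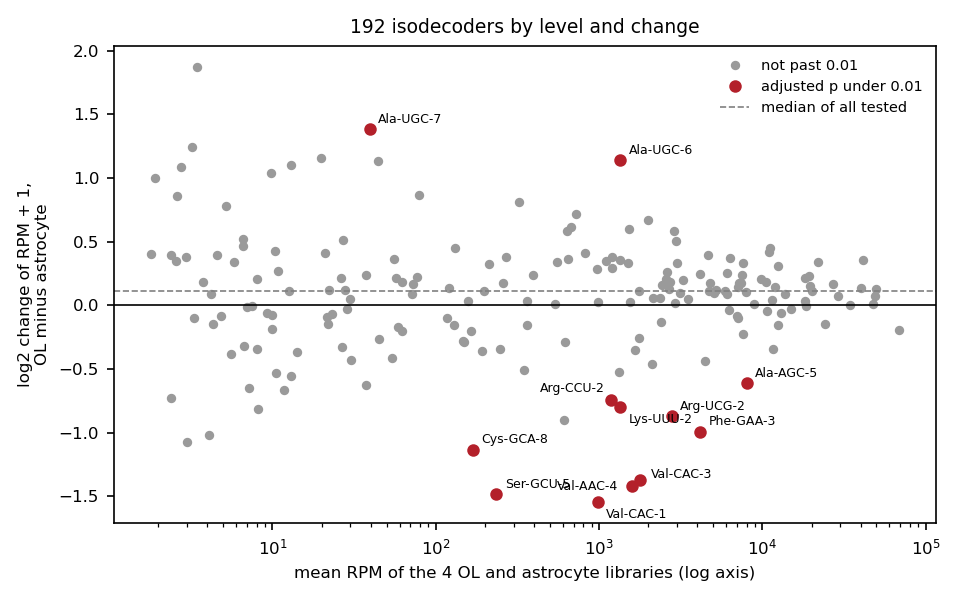
Log2 change of RPM + 1, OL minus astrocyte, against the mean RPM of the 4 libraries (log axis) for the 192 isodecoders, with those past an adjusted p of 0.01 in red and named. The 10 lower isodecoders lie between -1.54 and -0.61, and the median of all tested (0.11, dashed) lies above 0.

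The calls were also counted by level and copy number. Of the isodecoders with a mean of 1000 to 10000 RPM 8 of 62 were called, of those with 100 to 1000 RPM 2 of 30, of those with 10 to 100 RPM 1 of 36, and of those under 10 RPM 0 of 34. Above 10000 RPM 1 of 30 was called, which was Ala-AGC-5 by its mean over all 7 libraries. By copy number 8 of 135 single-copy isodecoders were called, 4 of 37 with 2 or 3 copies, and 0 of 20 with 4 or more, beside 6.25% of all isodecoders. The median absolute log2 change was 0.29 in single-copy isodecoders, 0.33 in those with 2 or 3 copies and 0.15 in those with 4 or more. It was 0.34 in the lesser members of pools and 0.15 in the most abundant members, beside 0.25 over all isodecoders. Between OL replicates the lesser and the most abundant members differed by medians of 0.17 and 0.07, and between astrocyte replicates by 0.27 and 0.20. Level, copy number and rank within the pool move together, and their separate parts in the size of change were not tested.

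By wobble base, 3 of 67 isodecoders with C at the wobble base, iMet-CAU aside, were lower, and 2 of 34 of the inosine type. So were 1 of 17 of the Elongator type, 1 of 3 of the wybutosine type and 2 of 21 with other G bases. Of 29 with other U bases 2 were higher and 1 lower. Among all isodecoders 1.04% were higher and 5.21% lower. The counts of the C, inosine and Elongator classes were near that share. Of the 14 queuosine isodecoders 0 passed, with a median change of 0.20 beside 0.11 for all isodecoders. By amino acid, against the same shares, valine had 3 of 12 lower and a median of -0.17, and alanine 2 of 23 higher and 1 lower with a median of 0.33. The lysine isodecoders had a median of -0.34 with OLs below in 7 of 11, of which 1 passed, where OLs were below in 19.8% of all isodecoders. The tryptophan isodecoders had a median of -0.30 with OLs below in 3 of 6 and none past the threshold.

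The last question was how each pool is made up. A share removes what all members of a pool have in common, including the scaling of the library. The shares of a pool add up to the whole pool, so that calls within the same pool are not independent. Of 184 shares 7 passed an adjusted p of 0.01 in limma (3.8%), 2 higher (1.09%) and 5 lower (2.72%), in 5 pools, and 26 passed 0.05 (14.1%). The libraries did not overlap for 110 shares (59.8%), and the median change of all shares was 0.01. The isodecoders called in both level and share were 5, namely Val-CAC-1, Val-CAC-3, Val-AAC-4, Phe-GAA-3 and Ala-UGC-6, while Val-AAC-5 and Arg-CCG-2 were called in share alone. For all 12 isodecoders called in level the share changed in the direction of the level. A share change is the level change less the change of the pool, and each of the 12 level changes was the larger in size. The shared direction follows from this and is not a separate result. The count of shares was 0 without OL replicate 1 (lowest adjusted p 0.0301), without OL replicate 2 (0.0278), without astrocyte replicate 1 (0.0103), without OPC replicate 1 (0.012) or without OPC replicate 2 (0.0107). It was 1 without astrocyte replicate 2, 0 in a fit of the 4 OL and astrocyte libraries alone (lowest adjusted p 0.0137), and 18 with a variance trend. With the replicate number as a block it was 0 (lowest adjusted p 0.0103).

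**Figure D4:**
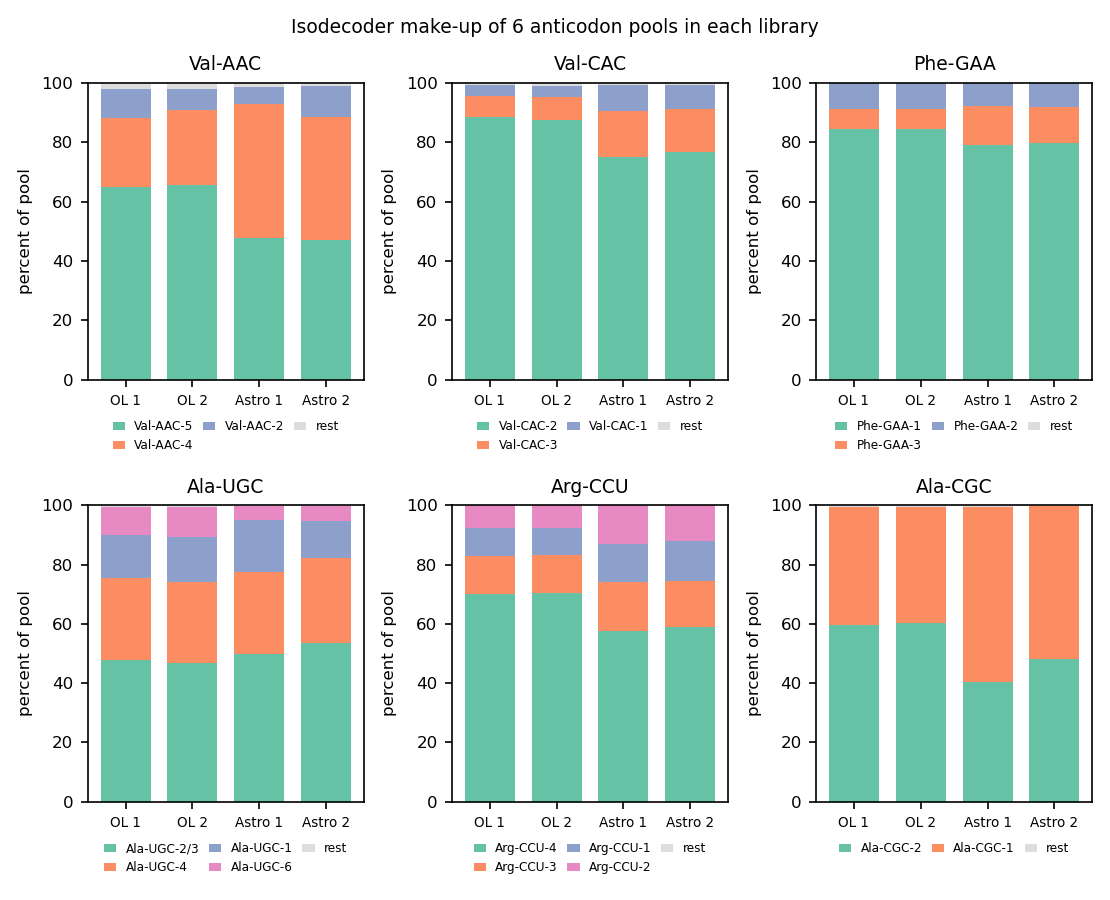
Percent of the pool held by each isodecoder in OL replicates 1 and 2 and astrocyte replicates 1 and 2 for 6 anticodon pools, with members under 2% in every library drawn together as the rest. For Val-AAC-5 the OL bars, at 64.8% and 65.6%, differ from the astrocyte bars, at 47.8% and 47.0%, by more than replicates do. This does not hold for every member, and Val-AAC-2 overlaps at 9.72% and 6.97% in OLs and 5.79% and 10.4% in astrocytes.

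Val-AAC had the most different make-up. Val-AAC-5 held 64.8% and 65.6% of the pool in OLs and 47.8% and 47.0% in astrocytes, which was a log2 difference of the share of 0.46 (SE 0.043, limma adjusted p 0.00458). Val-AAC-4 held 23.4% and 25.4% in OLs and 45.2% and 41.4% in astrocytes (-0.82, SE 0.075, limma adjusted p 0.00458). Val-AAC-5 and Val-AAC-4 together make up most of the pool, so that their shares largely mirror each other. The astrocyte libraries, whose levels of these isodecoders lay far apart, were close in share. In Val-CAC the major member Val-CAC-2 held 88.4% and 87.4% in OLs and 75.1% and 76.8% in astrocytes (0.21, SE 0.03, limma adjusted p 0.0153). Val-CAC-1 held 3.67% and 3.74% against 8.76% and 8.04% (-1.18, SE 0.057, limma adjusted p 0.00127), and Val-CAC-3 held 7.12% and 7.72% against 15.3% and 14.4% (-1.01, SE 0.087, limma adjusted p 0.00458). Both were lower in OLs in every pairing of libraries.

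Phe-GAA-3 held 6.86% and 6.70% of its pool in OLs and 13.2% and 12.2% in astrocytes (-0.90, SE 0.081, limma adjusted p 0.00458), and Phe-GAA-1 84.5% in each OL library and 79.0% and 79.8% in astrocytes (0.09, SE 0.027, limma adjusted p 0.106). Ala-UGC-6 held 9.58% and 10.1% in OLs and 4.77% and 4.97% in astrocytes (1.01, SE 0.093, limma adjusted p 0.00458). Arg-CCG-2, which reads CGG, held 24.1% and 23.0% in OLs and 30.7% and 32.1% in astrocytes (-0.41, SE 0.04, limma adjusted p 0.00458), while its level, at 3907 and 3649 RPM against 4409.9 and 5939.8 RPM, had a limma adjusted p of 0.0756. For the shares of Phe-GAA-3, Ala-UGC-6 and Arg-CCG-2 the gap between the groups was several times the gap within them. This did not hold for Ala-UGC-2/3, the largest Ala-UGC member, at 47.8% and 46.9% in OLs and 49.8% and 53.4% in astrocytes. There the gap between the astrocyte libraries was close to that between the group means.

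Several shares came next by p and fell just short of the threshold. Ala-UGC-7 held 0.28% and 0.33% in OLs and 0.11% and 0.14% in astrocytes, Lys-UUU-2 1.51% and 1.54% against 2.29% and 2.31%, Arg-CCU-2 7.59% and 7.69% against 13.2% and 12.0%, and Ala-AGC-5 10.3% and 10.1% against 16.5% and 16.0%, with limma adjusted p of 0.0141 for the former pair and 0.0153 for the latter pair. Glu-UUC-2, of the Elongator-type pool that reads glutamate codons, was at 32.0% and 33.4% in OLs and 39.1% and 40.8% in astrocytes (-0.29, SE 0.041, limma adjusted p 0.0153). The shares of Arg-UCG-2, Thr-AGU-6 and Ser-GCU-5, named after their values were seen, had the same limma adjusted p of 0.0153. Arg-UCG-2 held 4.45% and 4.39% in OLs and 7.72% and 9.79% in astrocytes (-0.98), Thr-AGU-6 5.84% and 5.805% against 12.9% and 11.2% (-1.04), and Ser-GCU-5 0.841% and 0.748% against 3.77% and 2.19% (-1.85, SE 0.28). None of these overlapped between the groups, although the astrocyte libraries of Ser-GCU-5 lay far apart.

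The difference in make-up was also given per pool as the percent of the pool that would have to pass to other isodecoders for the OL mean to become the astrocyte mean. Over the 40 pools of at least 1000 RPM its median was 3.21%, beside 0.977% between the OL replicates and 1.51% between the astrocyte replicates. In 22 of the 40 all 4 pairings of an OL with an astrocyte library exceeded both replicate values. It was 19.2% for Val-AAC (2.84% and 4.66% between OL and between astrocyte replicates), 15.6% for Ala-CGC (0.923% and 7.92%), 12.3% for Val-CAC (1.07% and 1.71%) and 11.9% for Arg-CCU (0.430% and 2.35%). Ala-AGC followed with 8.46% and Arg-CCG with 7.91%. Lys-UUU differed by 0.785%, with all 4 pairings from 0.755% to 0.825% and the replicates at 0.0453% and 0.0335%, so that a small difference exceeded both replicate values. The initiator pool iMet-CAU was at 0.00263%, below its replicate values of 0.0915% and 0.0228%.

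**Figure D5:**
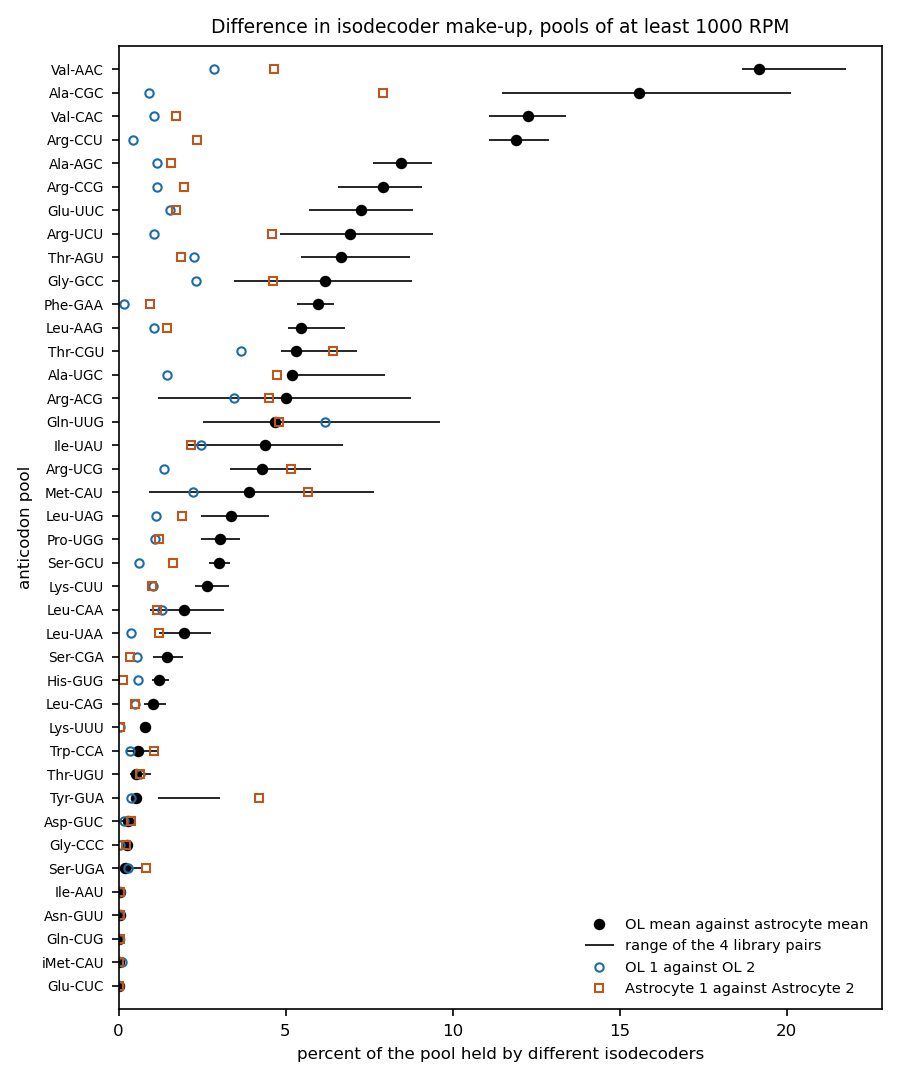
Percent of each anticodon pool held by different isodecoders for the 40 pools of at least 1000 RPM, between the OL and astrocyte means (black, with the range of the 4 library pairs), between the OL replicates (open circles) and between the astrocyte replicates (open squares). Val-AAC is at the top with 19.2%, and the median of the 40 pools is 3.21%.

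In Ala-CGC, which reads GCG, the order of the members changed between the fates. Ala-CGC-2 held 59.5% and 60.2% in OLs and 40.3% and 48.2% in astrocytes, and Ala-CGC-1 held 40.0% and 39.1% against 59.2% and 51.4%. Ala-CGC-2 was thus the larger member in both OL libraries and Ala-CGC-1 in both astrocyte libraries, with limma adjusted p of 0.0535 and 0.0281 for the shares. These shares make up nearly the whole pool and mirror each other, so that they are not separate results. In Arg-CCU the major member Arg-CCU-4 held 70.1% and 70.4% in OLs and 57.5% and 59.0% in astrocytes (limma adjusted p 0.0834), and each of the other members held less in OLs. The pool levels of Arg-CCU were close, with a log2 difference of -0.03.

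Gene locations were taken for the 10 pools that held a called isodecoder. In the RefSeq annotation of GRCm38, the assembly also called mm10, the pools of Ala-AGC, Ala-UGC, Arg-CCU, Arg-UCG, Phe-GAA and Val-AAC have 13, 11, 5, 5, 7 and 8 genes, as many as the gene copies named in the deposited tables. The other pools did not match, with 56 genes against 27 copies for Cys-GCA, 2 against 13 for Lys-UUU, 8 against 7 for Ser-GCU and 11 against 10 for Val-CAC. RefSeq numbers its genes differently, so that its genes could not be assigned to isodecoders here. Chromosome 13 carries 9 of the Ala-AGC genes, 5 of the Val-AAC genes and 5 of 11 Val-CAC genes, while 7 of the Ala-UGC genes are on chromosome X. Both RefSeq genes of Lys-UUU are on chromosome 13. The Phe-GAA genes are on 5 chromosomes and are all intergenic in the GENCODE annotation, whereas 4 of the 8 Val-AAC genes are intronic.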

How the data were processed

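The libraries were made by QuantM-seq, in which a double-stranded adapter is ligated to mature tRNA ends before reverse transcription. As the methods describe, the authors trimmed reads with cutadapt, mapped them with bowtie2 to mature mouse tRNAs of mm10 with identical genes collapsed, counted them with featureCounts and deposited RPM, which scale the reads of a tRNA to a common total of cytosolic and mitochondrial tRNA reads. Base modifications can stop reverse transcription and so affect RPM. For Phe-GAA, Lys-UUU, most alanine tRNAs and, modestly, Arg-UCU, the study reports fewer misreads and stops of reverse transcription in OLs than in astrocytes. It proposes that these tRNAs are less modified in OLs. The part of this difference in the RPM and shares of these pools was not tested. Deposited tables of DESeq2 results for OPCs and OLs were not used.

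Values were whole multiples of 1 read (tolerance 0.1 reads) for 100% of entries, which gave read totals. A count model was not run on these reads. log2(RPM + 1) was fitted with limma 3.58.1 in R 4.3.3 over 7 libraries with a variance trend, and shares, log2(RPM + 1) minus that of the pool, without one. Tests were two-sided, with Benjamini-Hochberg adjustment across every tRNA in the fit and a threshold of 0.01. On this scale the change of low tRNAs is understated. PCR copies were not marked, so limits from reads cover counting error only. The study calls the replicates biological, with OLs made from 2 of the OPC replicates and astrocytes from the same OPCs, so the libraries share an origin and p-values measure the spread between them. The fit was tested on simulated data.

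The tRNAs named were, for anticodons, those past 0.01, the 5 largest and 5 lowest changes among pools of at least 100 RPM whose libraries do not overlap and 6 that the study discusses. For isodecoders they were those past 0.01, the next 10 by p and all members of the Phe-GAA, Lys-UUU, Ala-UGC, Val-CAC and Val-AAC pools of at least 1 RPM. For shares they were those past 0.01 and the next 6, and for pools the 6 of at least 1000 RPM that differed most in make-up. Val-UAC, iMet-CAU and the further shares given for these pools were chosen after their values were seen. Members, lists and tests were chosen with earlier results of these data known.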

Additional observations from a re-analysis of the deposited data

How the results depend on the processing

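The number of anticodons past the threshold was 0 under every alternative run. The isodecoder count of 12 became 0 without a variance trend and 0 without the filter on low isodecoders, and ranged from 0 to 20 when 1 library was left out. The share count of 7 became 18 with a variance trend, 15 at a minimum of 100 RPM, 26 at a threshold of 0.05, and 0 in the 4 OL and astrocyte libraries alone, and ranged from 0 to 8 when 1 library was left out. The median difference in make-up of 3.21% was 2.73% for OL replicate 2 against astrocyte replicate 2, and 2.798% to 3.29% when 1 library was left out. The causes were not tested.

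The methods state that OLs were made from 2 of the OPC replicates, and that astrocytes came from the same OPCs, but do not tie these to replicate numbers. Same-numbered OL and astrocyte libraries deviated in opposite directions from their group means (correlations of -0.294 over isodecoders and -0.518 over anticodons), and the numbers were not taken as pairs. With a replicate block the counts were 0 anticodons, 10 isodecoders and 0 shares. With crossed numbers, chosen after seeing the data, they were 0, 18 and 0.

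Of 240 alternative values of named anticodons 4 turned sign and 236 kept direction and side of the threshold. For isodecoders, of 612, 19 turned sign, 75 lost the call, 12 gained it and 506 kept both. For shares, of 181, 0 turned sign, 57 lost the call, 12 gained it and 112 kept both. None of the values that turned sign was called. After rescaling to the listed tRNAs Ala-AGC was at -0.00471, Phe-GAA-2 at -0.0134 and Ala-UGC-2/3 at -0.0545. After median-of-ratios scaling Arg-UCU was at -0.000572, Ala-AGC at -0.0520, Phe-GAA-2 at -0.0449 and Ala-UGC-2/3 at -0.0860. With 1 library left out Phe-GAA ranged from -0.269 to 0.0876, Phe-GAA-1 from -0.173 to 0.171, Phe-GAA-2 from -0.106 to 0.204, Val-CAC-2 from -0.358 to 0.0479, Val-CAC-4 from -0.536 to 0.343, Val-CAC-5 from -0.639 to 0.270 and Val-AAC-1 from -0.0991 to 0.529. Val-AAC-3 ranged from -0.217 to 0.0980, Val-AAC-5 from -0.430 to 0.162, Ala-UGC-1 from -0.0480 to 0.306, Ala-UGC-2/3 from -0.0955 to 0.112 and Ala-UGC-8 from -0.337 to 1.04. With 2 libraries per group the 95% intervals of the log2 change had a median width of 0.877 over the isodecoders. They lay between -0.5 and 0.5 for 48 of 192. For most isodecoders a change of 0.5 in size, in one direction or the other, was thus not outside the interval.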
